A study of Mus musculus with 6 samples.

Results

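The genes of antigen presentation were followed through the growth of mouse skeletal muscle, from late gestation to the adult. They were 10 genes chosen by symbol, with earlier results of these data known, out of 23367 gene entries measured. All 10 were found in the table and passed the filter on low counts. They fall into 3 groups by role: the class I genes B2m, H2-K1 and H2-D1, the peptide loading genes Tap1, Tap2 and Tapbp, and the class II genes Cd74, H2-Aa, H2-Ab1 and H2-Eb1. Polyadenylated RNA came from the gastrocnemius, a calf muscle, of wild type FVB mice at 5 stages: embryonic day 18.5 (E18.5), postnatal days 2 (PN2), 14 (PN14) and 28 (PN28), and adult at 22 weeks. No allele or treatment set the stages apart. There were 6 libraries, 2 at PN14 (replicates 1 and 2, given in that order) and 1 at every other stage. The E18.5 library pooled male and female mice and the PN2 library pooled several mice, whereas each later library came from a single mouse, and all libraries after E18.5 were of male mice. The deposited values were expected counts and FPKM (fragments per length of transcript and per total counted, so that levels of genes can be compared).

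Class I molecules are found on almost every nucleated cell and display peptides made inside the cell to CD8 T cells. The heavy chains, encoded by H2-K1 and H2-D1, pair with beta-2 microglobulin, the product of B2m. Tap1 and Tap2 form the transporter that carries peptides into the endoplasmic reticulum, and tapasin, the product of Tapbp, bridges the transporter and the empty class I molecule. Class II molecules are made mainly by dendritic cells, macrophages and B cells and display peptides taken up from outside to CD4 T cells. H2-Aa and H2-Ab1 encode the alpha and beta chains of the A molecule, H2-Eb1 the beta chain of the E molecule, and Cd74 the invariant chain that holds the class II groove until peptide is loaded. Resting muscle fibres are known for low class I and little class II, while the macrophages, dendritic cells and capillaries between fibres carry more.

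In mm9, the build used for these data, B2m lies on chromosome 2 from 121973422 to 121978819. The H2 and loading genes lie within the major histocompatibility complex on chromosome 17: Tapbp from 34052844 to 34066235, H2-K1 from 34132962 to 34137278, Tap1 from 34324498 to 34334170, Tap2 from 34340472 to 34353266, H2-Ab1 from 34400154 to 34406363, H2-Aa from 34406276 to 34424772, H2-Eb1 from 34442828 to 34453144 and H2-D1 from 35399675 to 35404444. These spans are those of GENCODE M1. Of the 2381 windows of 100 bases in the coding transcripts of H2-D1, 93 (3.91%) were also found, letter for letter, in transcripts of 10 other genes, so part of its counts can be shared with other class I genes. No such window was found for the other 9 genes.

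RefSeq promoter entries (GRCm38.p6, of C57BL/6 and not of FVB) matched B2m, H2-K1, H2-D1, Tap1, Tapbp, H2-Aa and H2-Eb1. Stretches before the start of 5 of these genes are shown, because they set the motifs of the class I promoters beside those of class II. Capitals mark 4 motifs, searched on both strands in the 250 bases before each start and chosen with these sequences in view: the kappaB type motif GGGATTCC, the interferon regulatory factor motif AANNGAAA, the Y box ATTGG and the cyclic AMP response element TGACGTCA. None of the marked motifs overlap. The lines give H2-K1 at chr17:34000398-34000477 (minus strand), H2-D1 at chr17:35262914-35262993, B2m at chr2:122147537-122147656, H2-Aa at chr17:34287854-34287913 (minus strand) and H2-Eb1 at chr17:34305757-34305846.
H2-K1: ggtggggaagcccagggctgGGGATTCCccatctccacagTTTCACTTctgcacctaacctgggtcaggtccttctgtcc
H2-D1: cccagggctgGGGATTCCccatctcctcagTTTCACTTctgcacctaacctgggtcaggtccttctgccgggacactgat
B2m: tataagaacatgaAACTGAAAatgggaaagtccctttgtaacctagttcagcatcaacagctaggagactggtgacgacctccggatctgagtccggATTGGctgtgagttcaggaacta
H2-Aa: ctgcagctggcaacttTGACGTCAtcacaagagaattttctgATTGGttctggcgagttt
H2-Eb1: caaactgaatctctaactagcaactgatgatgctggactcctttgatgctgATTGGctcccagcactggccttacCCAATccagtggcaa

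The kappaB type motif stood 110 bases before the first listed start of H2-K1 and 170 before that of H2-D1, each followed by an interferon regulatory factor motif, and 0.889% of 32851 RefSeq promoters hold its letters. The interferon regulatory factor motif of B2m stood 137 bases before the start, and 21.3% of promoters hold that motif. The Y box, which was found in all 7 promoters and in 33.8% of those listed, stood 48 bases before the start of H2-Aa and 59 before that of H2-Eb1. The cyclic AMP response element of H2-Aa, held by 1.55% of promoters, stood 74 bases before the start. A match of letters is a description and not a binding site.

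Depth was high and alike, at 125402932 to 157868359 counts on genes per library, and 3 counts came to between 0.019 and 0.0239 CPM (counts scaled to a common library total). The muscle genes Acta1 and Ckm were abundant in every library, between 11979 and 37682 FPKM and between 4189 and 21722 FPKM respectively. Scaling to library size alone, as in FPKM, moved the median change of all genes, on the log2 scale, by -0.66 from PN2 to PN14, by -0.25 from PN14 to PN28, by -0.15 from PN28 to adult and by -1.08 from E18.5 to adult. TMM scaling, which assumes that most genes do not change, held the median between -0.054 and -0.011. Fold changes below are on the TMM scale and levels are in FPKM, and values under library size are given beside them for the 10 genes and the lists. Each library ran on its own sequencing lane, so lane and stage cannot be told apart, nor can the pooling and mixed sex of the E18.5 library and its stage.

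In the adult, 6 of the 10 genes stood higher than at E18.5 by the test and none stood lower, on the TMM scale. The rise was largest in the class II genes Cd74, H2-Aa and H2-Ab1, at between 5.77-fold and 6.77-fold, and smaller in H2-D1, Tap2 and H2-K1, at between 2.72-fold and 3.66-fold. B2m, Tapbp, Tap1 and H2-Eb1 were not called. Genes counted as called had an adjusted p below 0.05 in edgeR's quasi-likelihood test (Benjamini-Hochberg over 16882 genes) and at least a 2-fold change, and 21.4% of all genes tested were called as rising in this comparison. Since the 10 genes were chosen with earlier results known, such shares of all genes, here and below, are descriptions and not tests. The median log2 fold change was 1.54 over the 10 genes and -0.054 over all genes, and with library size alone it was 0.52 against -1.08, with 3 genes called. The share of all genes called with library size was not counted. Both stages have 1 library, so the test assumes that they vary as the PN14 pair does (1 residual degree of freedom). In muscle RNA taken whole, fewer cells of a type and less RNA per cell cannot be told apart.

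**Figure D1:**
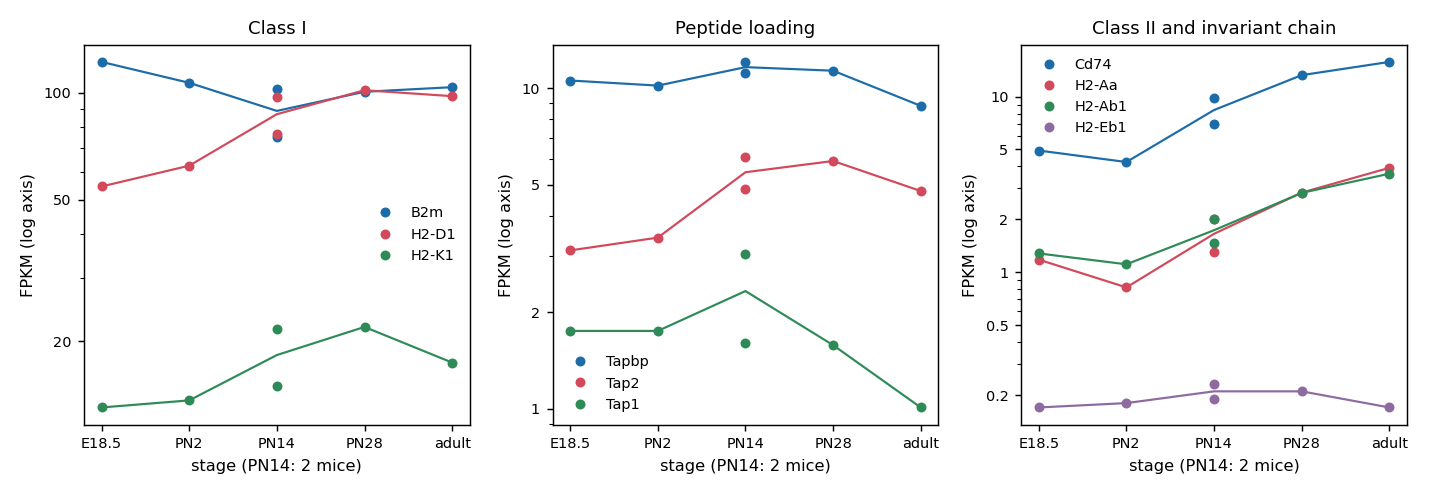
FPKM of the 10 genes (log axes) at each stage, with a point per library and a line through the stage values (the mean of both mice at PN14). Cd74, H2-Aa and H2-Ab1 are highest in the adult, H2-D1 reaches the level of B2m, and H2-Eb1 stays between 0.17 and 0.23 FPKM.

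The plot of FPKM by stage shows every library value of the 3 groups. B2m, the light chain shared by all class I molecules, was the most abundant of the 10 genes at E18.5, at 122 FPKM. It then stood at 107 FPKM at PN2, 75.2 and 103 FPKM in PN14 replicates 1 and 2 (88.9 ± 19.3, SD, n = 2), 100.6 FPKM at PN28 and 104 FPKM in the adult. The single library values at PN2, PN28 and adult lay within 1 SD of the PN14 mean, and the E18.5 value lay above both PN14 values. On the TMM scale B2m was 0.79 ± 0.226 (log2, SE) higher in the adult than at E18.5 (adjusted p = 0.0286, edgeR), short of the 2-fold threshold, whereas library size alone gave -0.24 (adjusted p = 0.586), the opposite direction.

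H2-D1, a classical class I heavy chain, had 54.5 FPKM at E18.5, 62.3 at PN2, 76.6 and 97.5 for the PN14 pair (87 ± 14.8, SD, n = 2), 102 at PN28 and 97.8 in the adult. The E18.5 and PN2 libraries were the lowest, below both PN14 mice, and the later libraries did not exceed the higher PN14 mouse by more than the PN14 spread. H2-D1 rose by a log2 fold change of 1.13 ± 0.229 (SE) from PN2 to PN14 (adjusted p = 0.018, edgeR) and by 1.87 ± 0.259 from E18.5 to adult (adjusted p = 0.00279). With library size alone the changes were 0.48 and 0.85, and neither passed both thresholds.

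H2-K1, the other classical heavy chain, was lower per length than H2-D1 in every library, at 13.0 FPKM at E18.5, 13.6 at PN2, 14.9 and 21.6 for the PN14 pair (18.3 ± 4.72, SD, n = 2), 21.9 at PN28 and 17.4 in the adult. The ratio of H2-D1 to H2-K1 in FPKM lay between 4.19 and 5.63 in the 6 libraries. On the TMM scale H2-K1 rose by 1.07 ± 0.202 (log2, SE) from PN2 to PN14 (adjusted p = 0.0153, edgeR) and by 1.45 ± 0.226 from E18.5 to adult (adjusted p = 0.00396). Under library size these were 0.43 and 0.42, and neither was called.

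A ratio of genes within a library does not depend on the scaling between libraries. The heavy chains H2-K1 and H2-D1 summed to 0.552 of B2m in FPKM at E18.5, 0.712 at PN2, 1.22 and 1.16 for the PN14 pair, 1.23 at PN28 and 1.11 in the adult. Heavy chain RNA was thus below B2m before PN14 and above it in each of the 4 libraries from PN14 on. The ratio was 1.01 higher on the log2 scale in the adult than at E18.5 (2.01-fold) and 0.74 higher at PN14 than at PN2, where the PN14 mice differed by 0.07 (SD 0.0479, n = 2). No test was made, since every other stage has 1 library.

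Among the loading genes Tap2 rose and Tap1 did not pass the test with the filter on low counts. Tap2 had 3.12 FPKM at E18.5, 3.42 at PN2, 4.85 and 6.09 for the PN14 pair (5.47 ± 0.877, SD, n = 2), 5.93 at PN28 and 4.78 in the adult. Both libraries before PN14 lay below all later ones. The log2 fold change of Tap2 was 1.33 ± 0.2 (SE) from PN2 to PN14 (adjusted p = 0.00906, edgeR) and 1.64 ± 0.223 from E18.5 to adult (adjusted p = 0.00267), or 0.68 and 0.62 with library size, which ended both calls.

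Tap1, the partner of Tap2, stood at 1.75 FPKM at both E18.5 and PN2, 1.61 and 3.05 for the PN14 pair (2.33 ± 1.02, SD, n = 2), 1.58 at PN28 and 1.01 in the adult. The PN14 mice differed more in Tap1 than in any of the other 9 genes in FPKM, with replicate 1 at 0.528 of replicate 2, and the adult value was the lowest. From E18.5 to adult its log2 fold change was 0.23 ± 0.393 (adjusted p = 0.64, edgeR), and -0.79 with library size (adjusted p = 0.23). From PN2 to PN14 it was 1.04 ± 0.353 (adjusted p = 0.07, edgeR). With no filter on low counts it was 1.03 in that interval, and Tap1 was called. Tap2 over Tap1 in FPKM was 1.78 at E18.5, 1.95 at PN2, 3.01 and 2 for the PN14 pair, 3.75 at PN28 and 4.73 in the adult. The adult and PN28 ratios lay above both PN14 mice, and the PN2 ratio lay beside that of replicate 2.

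Tapbp varied least of the loading genes, at 10.6 FPKM at E18.5, 10.2 at PN2, 11.2 and 12.1 for the PN14 pair (11.6 ± 0.629, SD, n = 2), 11.3 at PN28 and 8.81 in the adult. Its log2 fold change was 0.85 ± 0.18 (SE) from PN2 to PN14 (adjusted p = 0.0202, edgeR) and 0.76 ± 0.202 from E18.5 to adult (adjusted p = 0.022), both under 2-fold, and library size turned the second to -0.26. Relative to the heavy chains, Tapbp had 0.157 of their FPKM at E18.5, 0.134 at PN2, 0.122 and 0.101 for the PN14 pair, 0.0918 at PN28 and 0.0765 in the adult. The later single libraries lay below both PN14 mice and the earlier ones above both.

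**Figure D2:**
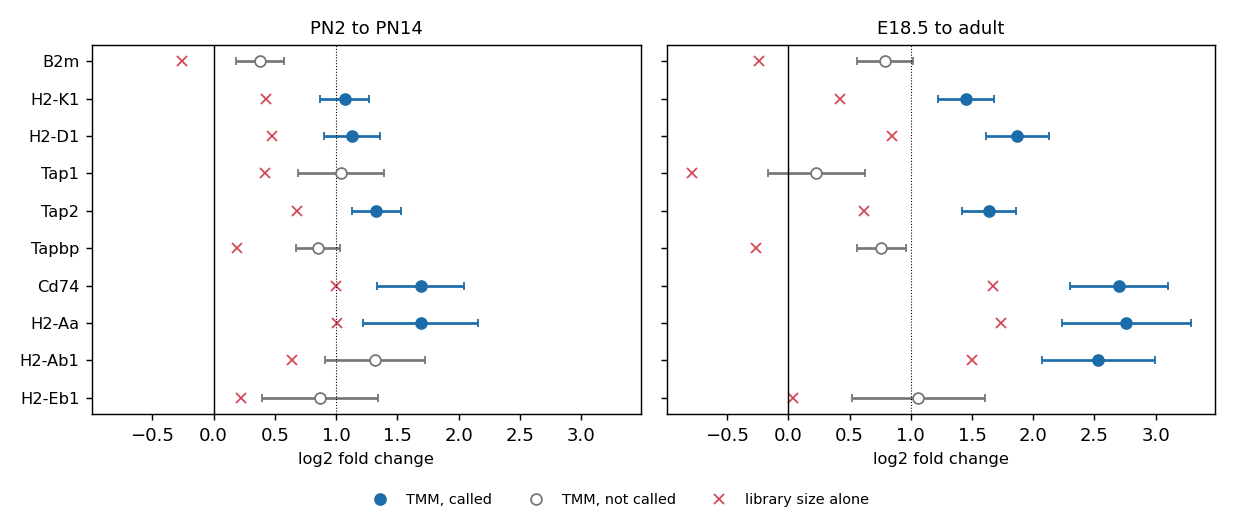
Log2 fold changes of the 10 genes from PN2 to PN14 and from E18.5 to adult, with circles for TMM scaling (filled where called, bars of 1 SE) and crosses for library size alone; dotted lines mark 2-fold. All 20 circles lie above 0, and the crosses of B2m, and in the right panel of Tap1 and Tapbp, lie below 0.

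Cd74 was the most abundant of the class II genes. The invariant chain gene had 4.93 FPKM at E18.5, 4.24 at PN2, 9.79 and 6.98 for the PN14 pair (8.38 ± 1.99, SD, n = 2), 13.2 at PN28 and 15.8 in the adult. The PN28 and adult libraries lay above both PN14 mice and the earlier libraries below both. Cd74 rose by a log2 fold change of 1.69 ± 0.355 (SE) from PN2 to PN14 (adjusted p = 0.02, edgeR), which became 1.0 with library size (adjusted p = 0.0543). From E18.5 to adult it rose by 2.70 ± 0.4 (adjusted p = 0.00333), and it was still called with library size at 1.67 (adjusted p = 0.00212).

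H2-Aa, the alpha chain, had 1.18 FPKM at E18.5, 0.82 at PN2, 2.01 and 1.30 for the PN14 pair (1.65 ± 0.502, SD, n = 2), 2.84 at PN28 and 3.93 in the adult. Its order over the libraries matched that of Cd74. H2-Aa rose by 1.69 ± 0.472 (log2, SE) from PN2 to PN14 (adjusted p = 0.0421, edgeR), a call lost with library size (1.01, adjusted p = 0.156) and with only genes of a mean of at least 1 CPM tested (adjusted p = 0.0559). The rise of 2.76 ± 0.525 from E18.5 to adult (adjusted p = 0.00723) was still called with library size, at 1.74 (adjusted p = 0.017).

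H2-Ab1, which encodes the beta chain that pairs with H2-Aa, had 1.28 FPKM at E18.5, 1.11 at PN2, 2.00 and 1.47 for the PN14 pair (1.73 ± 0.375, SD, n = 2), 2.83 at PN28 and 3.64 in the adult. It rose by 2.53 ± 0.461 (log2, SE) from E18.5 to adult (adjusted p = 0.00634, edgeR), against 1.5 (adjusted p = 0.0364) with library size. From PN2 to PN14 its log2 fold change of 1.32 ± 0.407 narrowly missed the threshold (adjusted p = 0.0551), and it passed with no filter on low counts (adjusted p = 0.03). The paired chains kept close to each other, with H2-Aa over H2-Ab1 between 0.739 and 1.08 in FPKM, and Cd74 stood at between 2 and 2.52 times the sum of both in every library.

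H2-Eb1 stayed low. The E beta chain gene had 0.17, 0.18, 0.19, 0.23, 0.21 and 0.17 FPKM in the E18.5, PN2, PN14 replicate 1, PN14 replicate 2, PN28 and adult libraries, from 38 to 55 counts. The 95% Poisson interval was 31.1 to 57.9 counts at E18.5 and 28.6 to 54.5 in the adult, for counting error only. These counts are not scaled between libraries, so their overlap says nothing about change on the TMM scale. On that scale H2-Eb1 had 0.188 CPM at E18.5 and 0.393 CPM in the adult. Its log2 fold change from E18.5 to adult was 1.06 ± 0.543 (adjusted p = 0.144, edgeR), and 0.04 with library size. Relative to H2-Ab1 it had 0.133 at E18.5, 0.162 at PN2, 0.095 and 0.156 for the PN14 pair, 0.0742 at PN28 and 0.0467 in the adult, so that the PN28 and adult ratios lay below both PN14 mice. FVB mice carry another haplotype of the major histocompatibility complex than the C57BL/6 reference, and how far that moved the counts of the H2 genes was not tested.

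Class II was set against class I within each library. The 4 class II genes summed to 7.56 FPKM at E18.5, 6.35 at PN2, 14 and 9.98 for the PN14 pair, 19.1 at PN28 and 23.5 in the adult. The 3 class I genes summed to 190, 183, 167, 222, 224 and 219 FPKM in the same order, so class I was far more abundant throughout and changed less in FPKM. Class II over class I was 0.0399 at E18.5, 0.0348 at PN2, 0.0839 and 0.045 for the PN14 pair, 0.0853 at PN28 and 0.107 in the adult. The adult ratio was 2.69-fold that at E18.5 (1.43 on the log2 scale), and other ways of forming it gave between 0.85, from the mean of log2 values, and 1.87, with B2m alone for class I. The PN14 mean was 0.82 above PN2 on that scale, which is less than the gap of 0.90 between the PN14 mice (SD 0.635, n = 2), and it became 0.37 without replicate 1 and 1.27 without replicate 2. Between the PN14 mice, replicate 1 had more Cd74, H2-Aa and H2-Ab1 (1.4, 1.55 and 1.36 times replicate 2 in FPKM) and less H2-K1, H2-D1 and B2m (0.691, 0.786 and 0.733 times). H2-Eb1 was lower in replicate 1 as well (0.826 times).

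**Figure D3:**
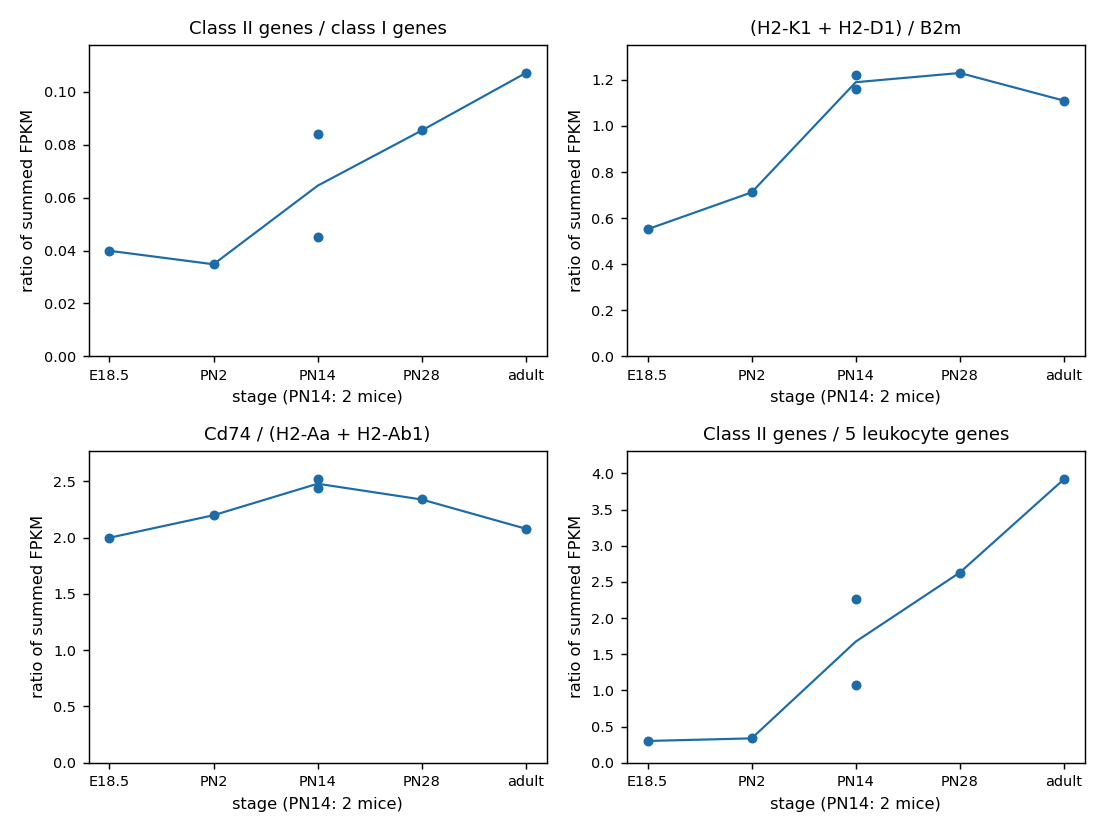
Ratios of summed FPKM in each library (points) by stage, with lines through the stage values (mean at PN14) and axes from 0. Class II over class I reaches 0.107 and class II over 5 leukocyte genes 3.92 in the adult, while Cd74 over H2-Aa plus H2-Ab1 stays between 2 and 2.52.

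By interval, the calls fell between PN2 and PN14. From PN2 to PN14 all 10 genes had a TMM log2 fold change above 0 and 5 were called by edgeR (Cd74, H2-Aa, H2-D1, H2-K1 and Tap2), where 11.8% of all genes were called as rising. The median of the 10 genes was 1.1, against -0.012 for all genes. With library size the median was 0.45 against -0.66, no gene was called, and B2m went to -0.26. DESeq2 also called 5 there and 6 from E18.5 to adult, with its share of all genes not counted.

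In the other intervals edgeR called none of the 10 genes, and neither did DESeq2. From E18.5 to PN2, 0 genes had an unadjusted p under 0.05, and 0.0296% of all genes were called in either direction. From PN14 to PN28, 3 genes had one (Cd74 at 0.0365, H2-K1 at 0.0366 and H2-Ab1 at 0.0494, unadjusted p from edgeR's quasi-likelihood test), where 0.0178% of all genes were called. The class II genes H2-Aa, H2-Ab1 and Cd74 had the highest log2 fold changes in that interval, at 0.98, 0.91 and 0.86. The other class II gene, H2-Eb1, had 0.27, and the lowest adjusted p of the 10 was 0.577 (edgeR). From PN28 to adult, 0 genes had an unadjusted p under 0.05, with 0.521% of all genes called, and H2-Aa again had the highest log2 fold change, at 0.61 ± 0.492 (SE). With so few calls among all genes, these intervals say little about whether the 10 genes differed.

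Counted without a test, 7 of the 9 genes that reached 1 CPM were at least 2-fold higher at PN14 than at PN2, against 14.7% of all such genes. The 7 were Cd74, H2-Aa, H2-Ab1, H2-D1, H2-K1, Tap1 and Tap2. The count was 6 without PN14 replicate 1 (12.7% of all such genes) and 5 without replicate 2 (16.4%). From E18.5 to adult 6 of 9 were at least 2-fold higher, against 25.2%. None was in the remaining intervals, where the share of all genes was 1.93% for E18.5 to PN2, 1.75% for PN14 to PN28 and 2.9% for PN28 to adult. From PN14 to PN28 the count became 3 (Cd74, H2-Aa and H2-Ab1) without replicate 1 (3.7% of all genes) and stayed 0 without replicate 2. These 3 genes were lower in replicate 2 than in replicate 1. From PN2 to PN14, Cd74 and H2-Aa passed 2-fold with either mouse left out, and H2-Ab1 did not without replicate 1.

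Markers of leukocytes and endothelium were then followed, in lists of 5 leukocyte, 15 macrophage, 10 dendritic cell, 6 B cell, 9 T and NK cell and 8 endothelial genes. Over all genes the median log2 fold change from E18.5 to adult was -0.054, and -1.08 with library size. The share of all genes called as falling was not counted, so the numbers of falling markers have no such share beside them. The summed FPKM of the leukocyte list (Ptprc, Cd53, Laptm5, Coro1a, Cd52) was 25.1 at E18.5, 18.9 at PN2, 6.15 and 9.23 for the PN14 pair, 7.28 at PN28 and 5.99 in the adult, with the earliest libraries highest, where class II was lowest. Laptm5 (11.5 FPKM) and Coro1a (8.7 FPKM) held most of the E18.5 sum. Ptprc, the pan-leukocyte gene CD45, had 1.34 FPKM at E18.5 and 0.41 in the adult (log2 fold change -0.69 ± 0.34, adjusted p = 0.133, edgeR). Of the 5 leukocyte genes none rose and 2 fell from E18.5 to adult, Laptm5 (-1.12) and Coro1a (-1.33), with a median of -0.84 (-1.86 with library size, with 4 falling). Class II over the leukocyte list was 0.301 at E18.5, 0.337 at PN2, 2.27 and 1.08 for the PN14 pair, 2.63 at PN28 and 3.92 in the adult. The libraries from PN14 on lay above both earlier ones, the adult at 13-fold the E18.5 ratio.

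The macrophage list summed to 169 FPKM at E18.5, 143 at PN2, 79.9 and 107 for the PN14 pair, 97.7 at PN28 and 77.1 in the adult. From E18.5 to adult 1 of its 15 genes rose, 5 fell and 9 were not called, with a median log2 fold change of -0.61 (-1.64 with library size, with none rising and 11 falling). Cx3cr1, the fractalkine receptor, fell most, with a log2 fold change of -4.00, and the mannose receptor Mrc1 (-1.92), the Fc receptor Fcgr1 (-1.83) and Emr1 (-1.47), which encodes F4/80, fell as well. The gene that rose was Lyz2, lysozyme (1.2, or 0.18 with library size), named after its value was seen, as was Aif1, which fell by 1.43. Class II over the macrophage list went from 0.0448 at E18.5 to 0.305 in the adult, by way of 0.0443 at PN2, 0.175 and 0.0936 for the PN14 pair and 0.196 at PN28.

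**Figure D4:**
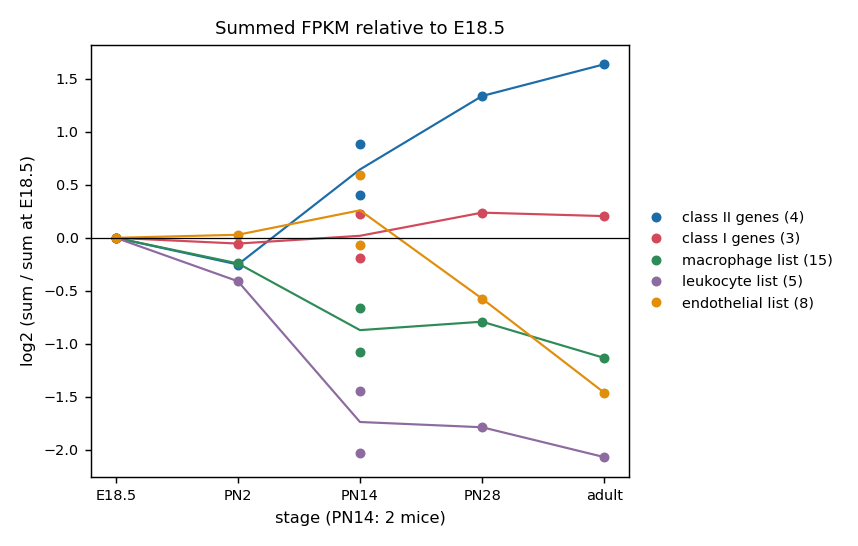
Log2 of summed FPKM relative to E18.5 for the class II and class I genes and for 3 marker lists, with a point per library and lines through the stage values (mean of the log2 values at PN14). In the adult the class II sum (23.5 FPKM) lies above its E18.5 value, and the macrophage (77.1), leukocyte (5.99) and endothelial (89.8) sums lie below theirs.

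Dendritic cell genes were mixed and low, with a list sum of 7.5 FPKM at E18.5, 7.25 at PN2, 3.98 and 4.74 for the PN14 pair, 3.58 at PN28 and 4.03 in the adult. The largest part of this sum was Zbtb46, named after its values were seen, at 3.82 FPKM at E18.5 and 2.11 in the adult. Zbtb46 was not called (log2 fold change 0.18). From E18.5 to adult the sum also lost Batf3 (1.72 to 0.17 FPKM) and Cd86 (1.24 to 0.24 FPKM). From E18.5 to adult 2 of 10 rose and 2 fell, with a median log2 fold change of 0.29 (-0.73 with library size, with the same counts). Those that fell were Batf3 (-2.30), a transcription factor, and Cd86 (-1.35), a costimulatory ligand. Those that rose stayed under 1 FPKM and were picked out once their values were known: the chemokine receptor gene Xcr1 went from 0.02 to 0.11 FPKM, with a PN14 mean of 0.27, and the lectin gene Cd209a from 0.08 to 0.97 FPKM. Cd209a had 0.02 FPKM at PN2, 0.06 and 0.07 for the PN14 pair and 0.14 at PN28, so the adult library stood apart. Itgax, which encodes CD11c and was picked in the same way, did not exceed 0.10 FPKM in any library.

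B cell and T cell markers were low, and the single genes of these lists given here were picked once their values were known. Ms4a1 (CD20) was at or under 0.05 FPKM and Cd3e at or under 0.10 FPKM in every library, while in the E18.5, PN2 and adult libraries Cd79b had 0.82, 0.71 and 0.11 FPKM and Cd4 had 0.45, 0.57 and 0.06 FPKM. The B cell list summed to between 0.17 and 1.1 FPKM and the T and NK cell list to between 0.3 and 1.19. Of 5 B cell genes tested none rose and 1 fell (Cd79b, -1.87), and of 7 T and NK cell genes 1 rose (Cd2, 0.02 to 0.11 FPKM) and 2 fell (Lck, -2.73, and Cd4, -1.84), with a median of -0.82 over the T and NK cell genes (-1.82 with library size, with none rising and 3 falling). The endothelial list summed to 247 FPKM at E18.5, 252 at PN2, 235 and 372 for the PN14 pair, 166 at PN28 and 89.8 in the adult. Of its 8 genes none was called by edgeR from E18.5 to adult (median -0.45). With library size 7 fell (median -1.48, against -1.08 for all genes). At PN14 the leukocyte, macrophage and endothelial sums were all higher in replicate 2, as were the class I genes, Tap1, Tap2 and Tapbp in FPKM, whereas Cd74, H2-Aa and H2-Ab1 were higher in replicate 1. The part that any of these cell types had in the results was not tested.

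Other genes that supply class I with peptide changed unevenly. Of 10 such genes 4 rose and 1 fell from E18.5 to adult, with a median log2 fold change of 0.56 (-0.47 with library size, with none rising and 4 falling). The trimming peptidase Erap1 rose by 1.85 ± 0.237 (SE), from 2.95 to 5.23 FPKM, and the immunoproteasome subunits Psmb8 and Psmb9 by 1.80 ± 0.316 and 1.71 ± 0.37 (adjusted p from 0.00231 to 0.0113, edgeR). Pdia3, a disulfide isomerase of the loading complex, fell by 2.24 ± 0.311, from 185 to 19.3 FPKM (adjusted p = 0.00281), under both scalings. The fourth gene that rose was Tapbpl (1.58), named after its value was seen.

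The wider class I family was also followed. Of its 19 genes 15 were tested, of which 10 rose, 1 fell and 4 were not called from E18.5 to adult, with a median log2 fold change of 1.62 (0.59 with library size, with 6 rising). H2-T24 had 0.37 FPKM at E18.5, 0.28 at PN2, 2.11 and 1.57 for the PN14 pair, 2.08 at PN28 and 2.16 in the adult, a log2 fold change of 3.56 ± 0.467 (adjusted p = 0.00244, edgeR). H2-T22 rose by 3.01 and H2-T23, which encodes Qa-1, by 2.67, and both were called with library size as well (1.98 and 1.64). H2-Q8 was listed at 0.08, 0, 0, 0.23, 0.45 and 1.56 FPKM in the E18.5, PN2, PN14 replicate 1, PN14 replicate 2, PN28 and adult libraries, a log2 fold change of 5.19 ± 1.5. These genes have near copies among themselves, so how the counts were split between them is uncertain. The 1 gene that fell was H2-M5, from 0.24 to 0 FPKM, named after its values were seen.

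The other class II genes did not move as a group. Of 11 genes that edit or process class II 10 were tested, of which 2 rose, 1 fell and 7 were not called from E18.5 to adult, with a median log2 fold change of 0.51 (-0.51 with library size). Legumain, Lgmn, a lysosomal protease, fell by 1.38 ± 0.24 (SE), from 97.1 to 18.3 FPKM (adjusted p = 0.0054, edgeR). The genes that rose were H2-DMb1 (0.22 to 0.51 FPKM, log2 fold change 2.25) and H2-DMb2 (0.30 to 0.57 FPKM, 1.94), beta chains of the peptide editor DM, named after their values were seen, and neither was called with library size.

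The regulators were mostly not called. Ciita, the master coactivator of class II genes, had 0.10 FPKM at E18.5, 0.07 at PN2, 0.05 in each PN14 replicate, 0.08 at PN28 and 0.09 in the adult, and Nlrc5, the class I coactivator, had 0.24, 0.23, 0.09, 0.26, 0.16 and 0.17 FPKM in the same order of libraries. Neither passed the test from E18.5 to adult (log2 fold changes of 0.85 ± 0.514 and 0.53 ± 0.651, adjusted p = 0.207 and 0.52, edgeR). Of 13 regulators 1 rose, 1 fell and 11 were not called, with a median of 0.53, and with library size none rose and 3 fell (median -0.50). Those called were both subunits of NF-Y, the factor known to bind the Y box: Nfyb rose by 2.01 ± 0.2, from 8.98 to 17.8 FPKM (0.99 with library size, just under 2-fold), while Nfya fell by 1.52 ± 0.246, from 12.6 to 2.16 FPKM.

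Interferon-induced genes were also followed. From PN2 to PN14, 12 of 24 rose and none fell, with a median log2 fold change of 1.14, and with library size 7 rose and 2 fell (median 0.49). From E18.5 to adult 6 rose, 2 fell and 16 were not called, with a median of 0.15, and with library size none rose and 8 fell (median -0.87). The GTPase gene Irgm1 rose by 1.64, Gbp2 by 1.76 and Iigp1 by 1.55, and Ifit3 by 2.09, from E18.5 to adult, and none of these was called with library size. Their adult FPKM of 6.34, 2.62, 2.48 and 0.85 compares with 4.14, 1.57, 1.68 and 0.40 at E18.5. The 2 that fell were Bst2 (-1.19, 23.1 to 4.95 FPKM) and Ifit2 (-1.07, 3.54 to 0.83 FPKM), named after their values were seen. The list summed to 143 FPKM at E18.5, 122 at PN2, 116 and 144 for the PN14 pair, 126 at PN28 and 77.2 in the adult.

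Lists of other tissue components give the setting. All 5 erythroid genes fell from E18.5 to adult (median log2 fold change -3.52), with Hba-a1 at -3.52, Hbb-b1 at -3.44 and Alas2 at -2.87. Of 6 fibroblast genes 1 rose (Ly6a at 1.36, or 0.33 and not called with library size, named after its value was seen) and 4 fell (median -1.80), among the latter the collagens Col1a1 and Col3a1, each at -4.45. Of 8 muscle fibre genes 3 rose (median 3.42), the myosin heavy chains Myh4 and Myh1 and the calcium channel Ryr1, and 7 rose with library size (median 2.39). The median of the 10 antigen presentation genes, at 1.54, lay between these.

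The genes whose course was most like that of class II were sought by Pearson's r between log2 CPM profiles over the 6 libraries, among 11443 genes with at least 5 CPM in some library. They were Snf8, Asna1, Cse1l, 1700020I14Rik and Tpp1, each at 0.999, and 1660 genes exceeded 0.95, so a high value was common. For class I they were Commd4 (0.996), Gtf2h2 (0.991), the class I gene H2-Q4 (0.990), Snurf (0.989) and Ppargc1a (0.989), with 659 genes over 0.95. These values are descriptions: the points share libraries and the TMM scaling, and in FPKM Snf8, for instance, went from 23.8 at E18.5 to 18.9 in the adult while H2-Aa went from 1.18 to 3.93.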

How the data were processed

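The authors aligned paired-end reads to mm9 with TopHat 2.0.5 and made the deposited expected counts with RSEM on RefSeq gene models. The deposited FPKM values come from the same step and carry no scaling between libraries beyond library size. Columns were matched to libraries by name.

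Expected counts were rounded to whole numbers, normalized by TMM, filtered by filterByExpr with stage as the group (16882 genes) and tested with edgeR 4.0.16 (quasi-likelihood, R 4.3.3), with all 6 libraries and 5 stages in 1 fit and Benjamini-Hochberg adjustment per comparison. Only the PN14 pair informs the spread (1 residual degree of freedom, common biological coefficient of variation 0.188). The PN14 libraries are of separate mice. The 2-fold counts used log2 of CPM plus 0.1 among genes reaching 1 CPM. Alternatives were DESeq2 1.42.0, library size, DESeq2 size factors, other filters, a pseudocount of 1 CPM, each PN14 library left out, other ways of forming class II over class I, and, chosen after seeing the data, other genes in 2 of the ratios and calls with no fold threshold.

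Members and the 14 other lists were chosen with earlier results of these data known. From each list were named up to 4 called genes with the largest change from E18.5 to adult that reached 1 FPKM, plus Ciita, Nlrc5 and Ptprc. Other genes named from the lists were chosen after their values were seen. Spans came from GENCODE M1 (mm9) and promoters from RefSeq (GRCm38.p6), read with Python 3.11.15 and pandas 2.3.3. Figures used matplotlib 3.10.9.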

Additional observations from a re-analysis of the deposited data

How the results depend on the processing

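The scaling mattered most. With library size alone the genes called went from 5 to 0 for PN2 to PN14 and from 6 to 3 (Cd74, H2-Aa and H2-Ab1) for E18.5 to adult, and those at least 2-fold higher from 7 to 0 and from 6 to 3. It turned the log2 fold change of B2m to -0.26 from PN2 to PN14, of Tapbp to -0.04 from PN14 to PN28, of H2-D1 to -0.06 from PN28 to adult, and of B2m to -0.24, Tap1 to -0.79 and Tapbp to -0.26 from E18.5 to adult. Of the 50 fold changes under that scaling 36 kept their direction and side of the threshold, 8 kept their direction and lost the call, and 6 reversed. DESeq2's test and size factors left all 50 as they were, a mean of at least 1 CPM left 44 and dropped H2-Eb1, and no filter left 48. A pseudocount of 1 CPM lowered the 2-fold count for PN2 to PN14 from 7 to 4. Under these settings the share of all genes called or 2-fold higher was not counted.

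Leaving out a PN14 library gave a 2-fold count for PN14 to PN28 of 0 to 3. Calls could not be recomputed without a PN14 library, since no residual degree of freedom is left. In alternatives chosen after seeing the data, heavy chain over B2m was 1.09 higher in the adult than at E18.5 (log2) with all class I H2 genes summed, against 1.01, and class II over leukocyte genes became 2.76 with macrophage genes, against 3.70. No paired analysis was possible because each stage came from different mice. H2-Eb1 rests on 38 to 55 counts per library, which limits its precision.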
